A study of Mus musculus with 3 samples.

Results

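Interleukins are secreted messengers between leukocytes, and their receptors on T cells mostly signal through Janus kinases to STAT transcription factors. Follicular regulatory T (Tfr) cells, which carry Foxp3, hold back antibody responses inside B cell follicles. IL-2 sustains regulatory T cells, while IL-6 and IL-21 are known for favouring follicular T cell differentiation and B cell help. The genes described here are interleukins and interleukin receptors outside the IL-1 family. They were chosen by name: a probe set annotated to a single symbol that starts with Il and a number, leaving out Il10, Il3ra, Il1a, Il1b and the symbols that start with Il1r, Il1f or Il18. The rule found 53 genes on 83 probe sets, of 18193 genes so named and 45101 probe sets in all. Il33, a member of the IL-1 family by structure, and Il1bos, which carries the name of Il1b, also met the name rule and were kept.

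Splenic Tfr cells of C57BL/6 mice were sorted 8 days after OVA immunization, by staining of lineage-negative cells for CXCR5, CD25, GITR, CD44 and CD4, and their RNA was read on single-colour Affymetrix arrays. The Rptor-null group had 2 arrays, each of RNA pooled from 8 mice with CD4-Cre and floxed Rptor alleles; the wild-type (WT) group had 1 array from a pool of 4 mice, and whether these carried Cre or floxed alleles was not given. Raptor, the Rptor product, is the scaffold protein that sets mTORC1 apart from other mTOR kinase complexes. CD4-Cre acts in developing T cells, so that Rptor is targeted in T cells other than Tfr cells as well. The comparison addresses which transcripts differ in cells sorted as Tfr cells from mice whose T cells carry this targeted deletion. Values are the authors' scaled intensities, given for Rptor-null as the 2 arrays or as mean ± SD (n = 2), and for WT as the single array without a replicate error. Each log2 difference is Rptor-null minus WT on the scale log2(intensity + 16), and its standard error (SE) and adjusted p come from a limma fit over 12721 genes.

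The median intensity was 55.0 and 54.9 on the Rptor-null arrays and 52.8 on the WT array. Precision is limited by having 3 arrays. Rptor itself read 353 and 412 in Rptor-null cells and 365 in WT cells (adjusted p = 0.824), and whether its probe set covers the deleted exons is unknown, so the deletion was not checked. The 3' to 5' signal ratio of Gapdh, a measure of RNA quality, was 1.94 and 2.58 on the Rptor-null arrays and 1.11 on the WT array. That of beta-actin was 2.65 and 2.87 on the Rptor-null arrays and 1.40 on the WT array. Both ratios were thus higher on both Rptor-null arrays, and the part of RNA quality in the differences below was not tested. Among markers of the sorted cell, Foxp3 read 587 and 423 in Rptor-null cells and 752 in WT cells and was not called (limma adjusted p = 0.0799). Of 10 Tfr and sort markers 5 were called lower and 0 higher. Cd44, a sort marker, lay above WT without being called, at 4383 and 4306 in Rptor-null cells and 3540 in WT cells (limma adjusted p = 0.0546). In a T cell list 6 of 8 markers past the filter were called lower, with summed levels of 28488 and 27948 in Rptor-null cells and 43929 in WT cells. Of 12 macrophage markers 9 were called higher, with summed levels of 49861 and 56405 in Rptor-null cells and 35851 in WT cells, and of 6 basophil and mast cell markers 4 were called higher (1858 and 2220 against 1095). Over all tested genes 3.93% were called higher and 11.1% lower. In the neutrophil, B cell and dendritic cell lists 0 markers were called. Of 5 NK and innate lymphoid markers 1 was called higher, and of 2 CD8 markers 1 was called lower. Csf1r, a macrophage marker, read 12569 and 14904 in Rptor-null cells and 7911 in WT cells, so macrophage signal was present on all 3 arrays. Neutrophil markers summed to 20224 and 20638 in Rptor-null cells and 21864 in WT cells. The part of these cell types in the differences below was not tested. In such sorted pools, fewer cells of a type and less RNA per cell cannot be told apart.

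In Rptor-null cells the receptor gene Il6ra and the cytokine gene Il6 were higher than in WT cells, while Il21, its receptor gene Il21r and the chemoattractant gene Il16 were lower. The Il16 call held in only 5 of 10 tested alternatives. Of the 53 genes 30 had a probe set past the filter on dim signals and were tested. With limma, 2 were called higher and 3 lower at an adjusted p under 0.05, against 3.93% of all tested genes called higher and 11.1% called lower (15% in either direction). The members' shares of 6.67% and 10% lay near those background shares. At an unadjusted p under 0.05 the numbers were 3 higher and 7 lower, shares of 10% and 23.3% that again lay near those of all genes (8.14% and 21.7%). Differences of at least 1.5-fold in both Rptor-null arrays, counted without a test, were found for 2 members upward and 2 downward, where 2.26% and 5.18% of all genes met this rule. The median log2 difference of the 30 genes was -0.067, beside -0.060 over all genes. Members spread widely around that median, from -1.06 for Il21 to 0.99 for Il6ra.

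The sequences before the start sites of the 4 genes that differed by at least 1.5-fold in both arrays are shown because these genes form 2 ligand and receptor pairs, of which the IL-6 pair was higher and the IL-21 pair lower. Each is the 250 bases 5′ of the RefSeq start in build GRCm38.p6, on the gene's own strand. Capitals mark matches to 3 motifs searched on both strands, TTCNNNGAA (STAT), TGANTCA (AP-1) and GTAAACA (FOXO). No 2 matches overlapped in these windows. The Il6ra window lies at chr3:89913197-89913446 (minus strand), that of Il6 at chr5:30012864-30013113 (plus), that of Il21 at chr3:37232637-37232886 (minus) and that of Il21r at chr7:125603179-125603428 (plus).
Il6ra: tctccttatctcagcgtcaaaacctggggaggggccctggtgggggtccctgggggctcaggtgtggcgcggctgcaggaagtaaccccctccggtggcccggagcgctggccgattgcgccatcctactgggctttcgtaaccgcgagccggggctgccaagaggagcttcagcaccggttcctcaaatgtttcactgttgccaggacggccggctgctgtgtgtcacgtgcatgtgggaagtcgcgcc
Il6: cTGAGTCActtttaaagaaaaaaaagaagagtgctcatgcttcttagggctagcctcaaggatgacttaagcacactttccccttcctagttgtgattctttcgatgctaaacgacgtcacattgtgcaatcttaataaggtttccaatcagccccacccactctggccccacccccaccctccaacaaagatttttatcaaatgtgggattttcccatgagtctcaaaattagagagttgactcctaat
Il21: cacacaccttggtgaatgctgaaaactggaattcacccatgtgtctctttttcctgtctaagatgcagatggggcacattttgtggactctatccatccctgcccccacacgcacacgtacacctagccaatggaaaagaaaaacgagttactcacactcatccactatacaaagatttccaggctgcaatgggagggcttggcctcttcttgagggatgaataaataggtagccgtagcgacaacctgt
Il21r: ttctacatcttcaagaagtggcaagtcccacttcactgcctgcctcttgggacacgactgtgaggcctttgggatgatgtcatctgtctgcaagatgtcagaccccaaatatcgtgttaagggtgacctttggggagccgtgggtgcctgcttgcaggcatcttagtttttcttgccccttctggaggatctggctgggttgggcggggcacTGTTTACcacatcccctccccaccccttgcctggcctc

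The AP-1 match of Il6 begins at position -249 and the FOXO match of Il21r at position -38, counted from -1 at the base before the start, while the windows of Il6ra and Il21 hold none of the 3 motifs. RefSeq windows were found for 39 of the 53 genes, 46 windows in all. The AP-1 motif stood in 11 of the 46 (23.9%), beside 6.75% of 32851 windows of all genes outside chromosome 18. The STAT motif stood in 4 (8.70%, beside 7.02%) and the FOXO motif in 2 (4.35%, beside 3.17%). Of the 3 windows of Il16 the one at chr7:83735540-83735789 holds an AP-1 match. These are letter matches and nothing was measured there.

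**Figure D1:**
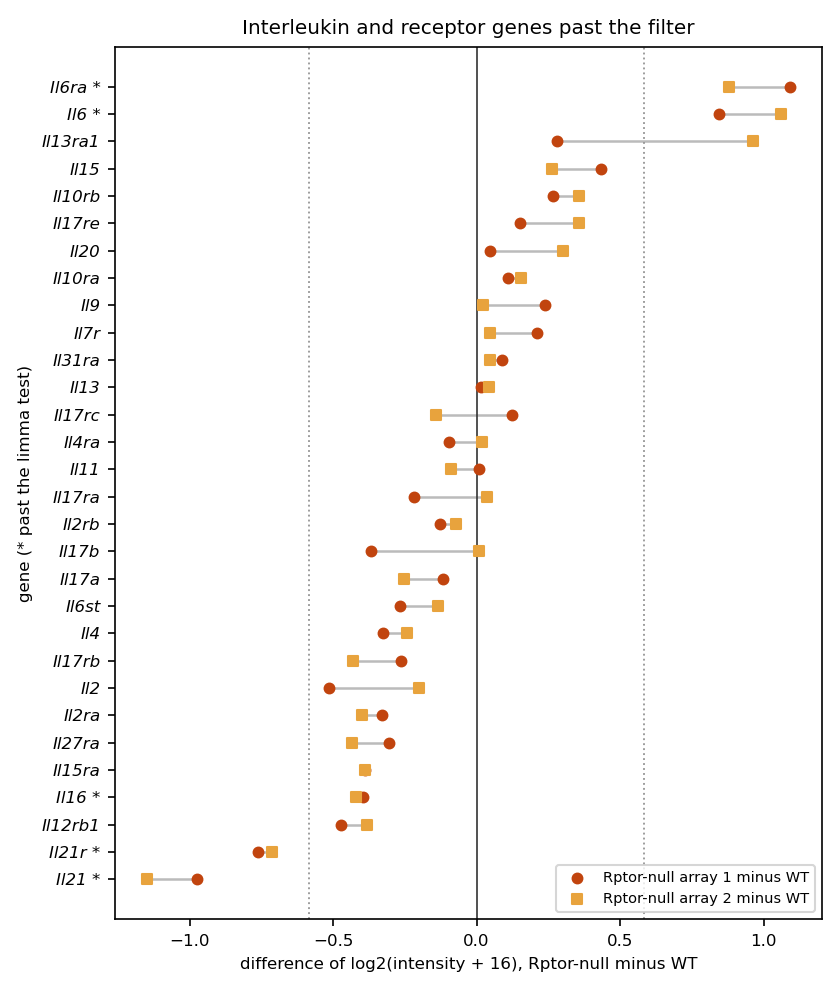
Log2 difference from WT (x axis, log2(intensity + 16), Rptor-null minus WT) of each of the 30 genes past the filter (y axis), with a circle for Rptor-null array 1, a square for array 2 and dotted lines at 1.5-fold. Il6ra and Il6 lie beyond the upper line and Il21r and Il21 beyond the lower one on both arrays, and Il13ra1 lies beyond the upper line on array 2 alone.

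IL-6 signals through its own receptor chain, encoded by Il6ra, and the shared chain gp130, encoded by Il6st. Il6ra read 1944 and 1676 in Rptor-null cells and 903 in WT cells. Both Rptor-null arrays stood above WT, and the difference of 0.99 ± 0.12 (SE), or 1.98-fold, passed the test (adjusted p = 0.00462). It ranked 91st from the top among the 12721 differences. The second probe set of Il6ra was dimmer and lay on the same side, at 137 and 137 in Rptor-null cells and 104 in WT cells. Its difference was smaller, at 0.35, and was not called with every probe set fitted singly (limma adjusted p = 0.243). Il6 read 104 and 123 in Rptor-null cells and 50.7 in WT cells, 1.94-fold higher (0.95 ± 0.17, adjusted p = 0.0127). Its level was in the dimmer part of the array, at the 23.6th percentile of tested genes, where the pseudocount of 16 shrinks the fold. On the same arrays the macrophage list had a median difference of 0.79 and the basophil list one of 0.85.

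Il6st did not pass the test on its brightest probe set, with 993 and 1091 in Rptor-null cells and 1198 in WT cells (-0.20 ± 0.11, adjusted p = 0.269). Its 4 kept probe sets disagreed. One read 322 and 272 in Rptor-null cells and 230 in WT cells, and another read 29.8 and 37.3 in Rptor-null cells and 81.3 in WT cells. The last passed the filter only through its WT value, so its difference of -0.98 is given without its p. With every probe set fitted singly, 3 member probe sets were called higher and 4 lower of 49, that Il6st probe set among the 4, where 2.23% of all kept probe sets were called higher and 5.92% lower. The identifier of the dimmest Il6st probe set marks possible cross-hybridisation. No direction is therefore given for Il6st.

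The gamma chain cytokines IL-2, IL-4, IL-7, IL-9, IL-15 and IL-21 share a receptor subunit. Of their 6 genes 5 passed the filter and 1, Il21, was called. Il21, whose product drives B cell responses in germinal centres, read 106 and 92.1 in Rptor-null cells and 224 in WT cells. Both Rptor-null arrays were far below the WT array, and the level was 2.09-fold lower (-1.06 ± 0.17, adjusted p = 0.00841). It ranked 87th from the bottom among all differences. A second Il21 probe set, under the filter, read 16.1 and 16.4 in Rptor-null cells and 19.7 in WT cells. Il2, the gene next to Il21 on chromosome 3, read 109 and 139 in Rptor-null cells and 163 in WT cells and did not pass (adjusted p = 0.244). Il4 likewise read below WT on both arrays (74.7 and 80.3 against 97.8, adjusted p = 0.281). Il15 read above it (110 and 96.1 against 77.4, adjusted p = 0.21), and Il9 lay within 0.24 of WT on both.

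Of 7 gamma chain cytokine receptor genes 6 passed the filter and 1, Il21r, was called. Il2rg, the gene of the shared subunit, was not among the genes that the name rule found, so it was not read here. Il21r, the IL-21 receptor chain, read 288 and 299 in Rptor-null cells and 500 in WT cells, 1.67-fold lower (-0.74 ± 0.13, adjusted p = 0.0122). That lay near the median differences of the T cell list (-0.66) and of the Tfr and sort list (-0.72) on the same arrays. The part of these lists in the Il21 and Il21r differences was not tested. For Il21r the 2 Rptor-null arrays differed by little beside their distance from WT. Il4ra, the next gene to Il21r on chromosome 7, showed no such distance: it read 307 and 334 in Rptor-null cells and 330 in WT cells (-0.039 ± 0.14, adjusted p = 0.878). Its 3 kept probe sets lay on different sides of WT, and the sign of its value turned with quantile normalization and with median centring.

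Il2ra encodes CD25, the IL-2 receptor alpha chain and a marker used in the sort. It read 366 and 348 in Rptor-null cells and 464 in WT cells (-0.36 ± 0.13, adjusted p = 0.102), and its second probe set read 60.5 and 89.3 in Rptor-null cells and 108 in WT cells. Il15ra, the IL-15 receptor alpha chain and the neighbour of Il2ra on chromosome 2, read 123 and 123 in Rptor-null cells and 166 in WT cells (-0.39 ± 0.16, adjusted p = 0.143). Its second probe set read 57.2 and 62.6 in Rptor-null cells and 98.8 in WT cells. Both genes were thus below WT on every kept probe set and array without passing the test, although Il15ra passed with the mean of its probe sets (adjusted p = 0.047, in a range of 0.047 to 0.218 over 9 alternatives).

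Il2rb, the beta chain that IL-2 and IL-15 share, lay close to WT on its brightest probe set, at 1098 and 1141 in Rptor-null cells and 1201 in WT cells (-0.10 ± 0.10, adjusted p = 0.563). That value turned to 0.026 after quantile normalization, and the other probe set read 290 and 273 in Rptor-null cells and 379 in WT cells. Il7r, the IL-7 receptor that naive and memory T cells carry, read 4417 and 3934 in Rptor-null cells and 3812 in WT cells (0.13 ± 0.098, adjusted p = 0.437). On its second probe set it read 1424 and 931 in Rptor-null cells and 749 in WT cells, a wider gap between the Rptor-null arrays than on the first.

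**Figure D2:**
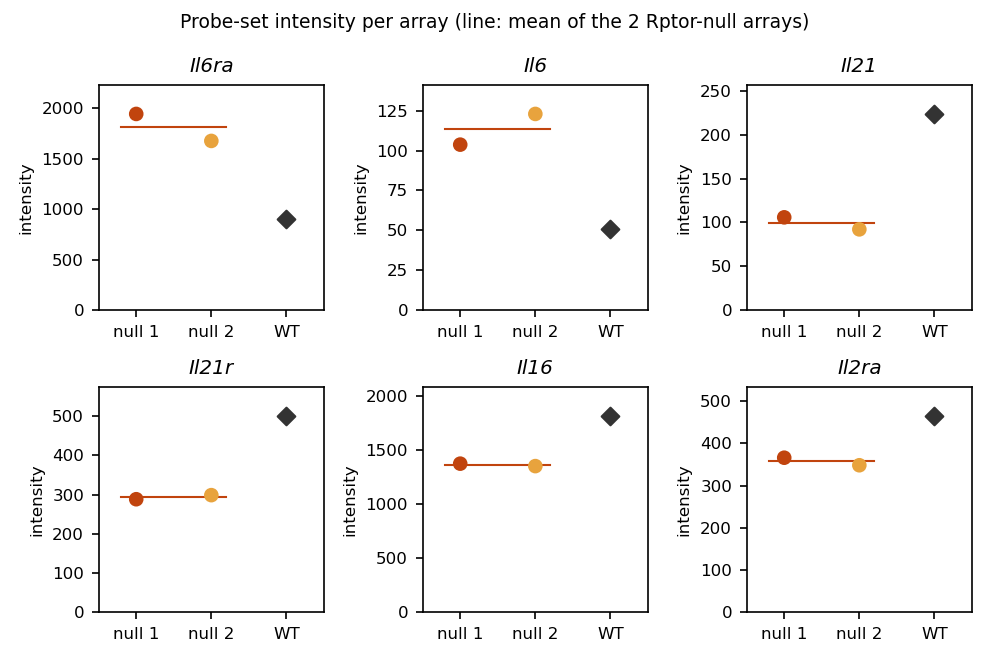
Intensity (y axis, linear, from 0) on each array for 6 genes, with the 2 Rptor-null arrays as circles, their mean as a line and the WT array as a diamond. The 2 Rptor-null values lie above WT for Il6ra and Il6 and below it for Il21, Il21r, Il16 and Il2ra, of which Il2ra did not pass the test.

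Among the IL-6 and IL-12 family receptors 5 of 6 genes passed the filter, and Il6ra was the 1 that was called. Il27ra, the specific chain of the IL-27 receptor, read 1090 and 996 in Rptor-null cells and 1351 in WT cells (-0.37 ± 0.11, adjusted p = 0.0596). Il12rb1, the chain that IL-12 and IL-23 receptors share, read 160 and 171 in Rptor-null cells and 228 in WT cells (-0.43 ± 0.15, adjusted p = 0.107). Both lay below WT on both arrays. Il31ra differed by 0.067 ± 0.16, and Il12rb2, the second IL-12 receptor chain, was under the filter. The cytokine genes Il12a, Il12b and Il23a were under it too, and Il11 read 54.8 and 50.2 in Rptor-null cells and 54.4 in WT cells.

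Il10ra and Il10rb encode the IL-10 receptor chains and passed the filter, while the other 4 receptor genes of that family did not. Il10rb read 1295 and 1380 in Rptor-null cells and 1074 in WT cells (0.31 ± 0.10, adjusted p = 0.0858). It was called higher with quantile normalization (adjusted p = 0.0459) and with median centring (adjusted p = 0.0243), over a range of 0.0243 to 0.18 for 10 alternatives. Il10ra read 503 and 519 in Rptor-null cells and 465 in WT cells (0.13 ± 0.12, adjusted p = 0.519). The second probe sets of both genes also lay above WT on both arrays. Il20, a cytokine of the family, read 52.0 and 65.1 in Rptor-null cells and 49.8 in WT cells.

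Il13ra1, a receptor chain for IL-13 and IL-4, did not pass on its brightest probe set, which read 99.7 and 170 in Rptor-null cells and 79.2 in WT cells (0.62 ± 0.27, adjusted p = 0.171). The Rptor-null arrays differed from each other by more than array 1 differed from WT. All 4 kept probe sets lay above WT on both arrays, from 0.32 to 0.90. Of these, the one at 55.5 and 77.3 in Rptor-null cells and 31.4 in WT cells passed the filter only through its Rptor-null values. Its side was thus favoured by the filter, its identifier marks possible cross-hybridisation, and it enters the mean of probe sets below. The one at 88.8 and 83.1 in Rptor-null cells and 38.4 in WT cells was called when each was fitted singly (adjusted p = 0.0293). Il13ra1 was also called higher with median centring on its brightest probe set (adjusted p = 0.0342) and with the mean of its probe sets (0.66 ± 0.15, adjusted p = 0.0229), over a range of 0.0229 to 0.239 for the 9 alternatives that give the gene 1 value. The gene lies on the X chromosome, and Xist, the X-inactivation transcript, read 1687 and 1143 in Rptor-null cells and 6691 in WT cells. Its part here was not tested, and the labels do not give the sex of the mice. Il13 itself read 44.4 and 45.5 in Rptor-null cells and 43.7 in WT cells, just above the filter level of 35.0, while Il3, Il5 and Il5ra were under it.

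IL-17 family receptor genes passed the filter in 4 of 5 cases and were not called on their brightest probe sets. Il17ra, the chain common to IL-17 receptors, read 1785 and 2133 in Rptor-null cells and 2080 in WT cells, so that the WT value lay between the others. Its second probe set read 154 and 144 in Rptor-null cells and 284 in WT cells, and was called lower when every probe set was fitted singly (-0.86, adjusted p = 0.0292). With the mean of both probe sets Il17ra was called lower (-0.48, adjusted p = 0.025), over a range of 0.025 to 0.928 for 10 alternatives, so no direction is given. Il17re read 265 and 308 in Rptor-null cells and 237 in WT cells (adjusted p = 0.316), with its second probe set on the other side. Il17rb, which binds IL-25, read 82.9 and 72.0 in Rptor-null cells and 103 in WT cells (adjusted p = 0.209). Il17a, the founding cytokine of the family, read 49.9 and 43.9 in Rptor-null cells and 55.5 in WT cells.

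Il16 encodes a chemoattractant that binds CD4. Its brightest probe set read 1372 and 1349 in Rptor-null cells and 1810 in WT cells, 1.33-fold lower (-0.41 ± 0.095, adjusted p = 0.0297). The next read 534 and 494 in Rptor-null cells and 626 in WT cells (-0.28), and the third kept one 129 and 143 in Rptor-null cells and 138 in WT cells, with WT between them. The call was lost in 5 of 10 tested alternatives, where the adjusted p ran from 0.0556 to 0.207. These included the mean of its probe sets, quantile normalization and the fit without a variance trend. They also included the leaving out of probe sets whose identifiers mark possible cross-hybridisation. That setting dropped the brightest Il16 probe set and gave -0.28 (limma adjusted p = 0.183).

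**Figure D3:**
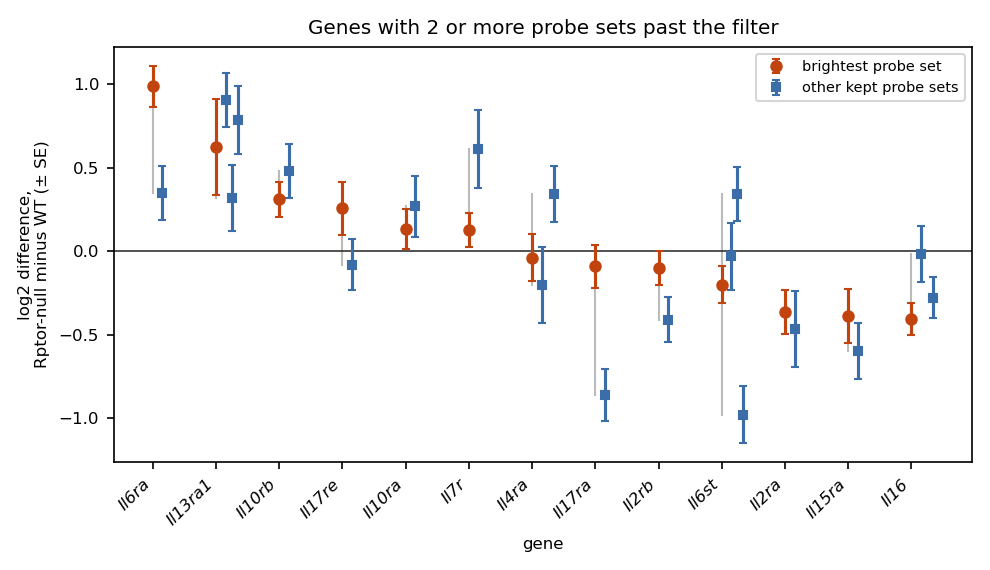
Log2 difference with its SE (y axis, Rptor-null minus WT, every probe set fitted singly) for the 13 genes with 2 or more probe sets past the filter (x axis), with the brightest as a circle and the others as squares. The probe sets of Il6st and Il17ra are spread from near or above 0 to below -0.8, while all those of Il13ra1 lie above 0 and all those of Il2ra and Il15ra below it. For Il13ra1 and Il6st, 1 probe set each passed the filter through 1 group alone.

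Where several probe sets of a gene passed the filter, all their differences, averaged over the 2 Rptor-null arrays, had the same sign in 10 of 13 members (76.9%), beside 2868 of 5635 genes overall (50.9%). The exceptions were Il4ra, Il17re and Il6st. With each array required to lie on that side, Il16 and Il17ra dropped out as well, leaving 8 of 13 (61.5%), beside 1964 of 5635 (34.9%). These counts include the Il13ra1 and Il6st probe sets that passed the filter through 1 group alone.

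Both Rptor-null arrays were above WT for 12 of the 30 tested members, below it for 13 and on either side for 5. Over all genes these shares were 32.8%, 48.7% and 18.5%. The remaining 23 genes had 27 probe sets that read between 7.08 and 32.3 on all arrays, and no fold is given for them. They were Il3, Il5, Il5ra, Il7, Il9r, Il12a, Il12b, Il12rb2, Il13ra2, Il17d, Il17rd, Il1bos, Il20ra, Il20rb, Il22ra1, Il22ra2, Il23a, Il24, Il25, Il31, Il33, Il34 and Il4i1. Of their probe sets 16 lay above WT on both arrays and 6 below, at levels where 49.9% of all probe sets lay above and 16.4% below. The members nearest the filter were Il22ra2 at a mean level of 28.9 below it and Il13 at 44.3 above it.

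**Figure D4:**
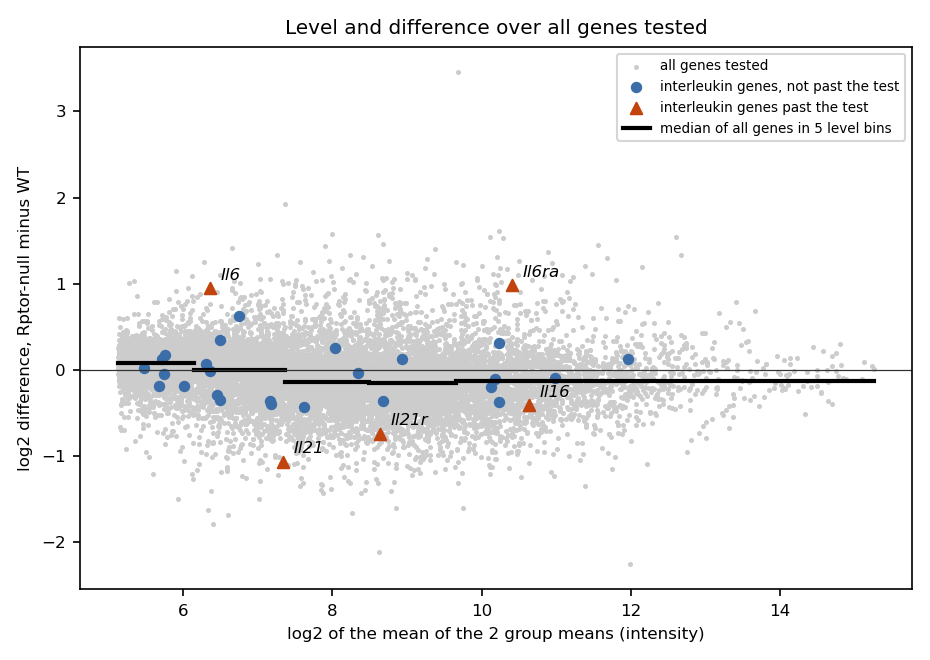
Log2 difference (y axis, Rptor-null minus WT) against log2 mean intensity (x axis) for all 12721 tested genes in grey and the 30 interleukin genes in colour, with triangles for those past the test and bars for the median of all genes in 5 bins of level. The bars stand at 0.078 in the dimmest bin and at -0.12 in the brightest, and the 5 triangles lie away from them.

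The offset between arrays changed with level: the median log2 difference in 5 bins of rising level was 0.078, -0.0031, -0.14, -0.16 and -0.12. Set against the median of its own bin, Il6ra was higher by 1.11 and Il6 by 0.96, while Il21 stood at -1.06, Il21r at -0.58 and Il16 at -0.28. Il2ra and Il27ra stood at -0.21 and -0.24 on that scale, and Il10rb at 0.44.

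Genes that work with the members but do not carry an interleukin name were read in the same fit, from a list of 40 receptor subunits, ligands, kinases, STAT factors and inhibitors. Of the 34 past the filter, limma called 4 higher and 0 lower, where 3.93% and 11.1% of all genes were called. At an unadjusted p under 0.05 there were 4 higher and 6 lower, beside 8.14% and 21.7% of all genes. The 4 were Csf2rb2, Csf2rb, Lifr and Osm. Csf2rb, the beta chain common to the IL-3, IL-5 and GM-CSF receptors, averaged 2061 ± 292 in Rptor-null cells and read 841 in WT cells, 2.41-fold higher (adjusted p = 0.00402). Csf2rb2, its near-identical mouse paralog used for IL-3, averaged 591 ± 65.6 in Rptor-null cells and read 188 in WT cells, 2.97-fold higher (adjusted p = 0.0033). Signal of these 2 copies may be shared between their probe sets. Lifr, which pairs with gp130 in the receptor for leukaemia inhibitory factor, averaged 58.6 ± 9.88 in Rptor-null cells and read 24.9 in WT cells (adjusted p = 0.0178). The WT value lies under the filter level, so Lifr was tested only because it was high in Rptor-null cells, and its call is a description. Osm, a cytokine of the IL-6 family, averaged 512 ± 3.98 in Rptor-null cells and read 367 in WT cells (adjusted p = 0.0421). On the same arrays the basophil and mast cell list had a median difference of 0.85. Its smallest difference was that of Mcpt8, with 423 and 559 in Rptor-null cells and 362 in WT cells (0.41, not called). Its largest was that of Ms4a2, with 381 and 396 in Rptor-null cells and 119 in WT cells (1.58). The part of this list in the values above was not tested.

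The kinases and STAT factors downstream of the receptors did not pass. Jak3, which binds the common gamma chain, averaged 185 ± 1.18 in Rptor-null cells and read 260 in WT cells (adjusted p = 0.0794), and Socs1, a feedback inhibitor of cytokine signalling, averaged 137 ± 11.6 in Rptor-null cells and read 198 in WT cells (adjusted p = 0.0863). Stat5b, a mediator of IL-2 signals, averaged 1016 ± 64.2 in Rptor-null cells and read 1025 in WT cells (-0.013 ± 0.11). Socs3, the inhibitor that acts on gp130, averaged 1395 ± 120 in Rptor-null cells and read 1266 in WT cells (adjusted p = 0.471). The median difference of the 34 genes was -0.031.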

How the data were processed

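The authors deposited 1 scaled intensity per probe set and array, not log-transformed. The submitters' processing notes name MAS5 without a version, and the background correction and scaling target were not given in the sources used here. Detection calls were not used here. Groups were taken from sample titles, and arrays are separate pools of mice.

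The platform annotation named the probe sets (34945 with 1 symbol, 932 with several, 9160 unnamed, 64 controls), and all 83 member probe sets matched a RefSeq gene by identifier. Control probe sets and the dimmest 40% (mean of the 2 group means at or below 35.0) were left out. The brightest kept probe set stood for a gene. Values were fitted as log2(intensity + 16) with limma 3.58.1 in R 4.3.3 (lmFit, eBayes with a trend), two-sided, with Benjamini-Hochberg adjustment over 12721 genes and a threshold of 0.05. The 1 residual degree of freedom (beside 6.39 prior ones) came from the Rptor-null arrays, so the fit takes the spread of WT to equal theirs, and any deviation of it enters every difference.

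On simulated data (20 sets of 12721 genes with 200 changed) the fit recovered 77.1% of log2 changes of 1 but 11.85% of log2 changes of 0.5, a size that many uncalled members approach, and 9.56% of calls were false. Simulated sets without a change gave a median of 0 calls and at most 22. The simulated WT array had the spread of the Rptor-null arrays and no offset that changed with level, so these rates may not hold for the real arrays. Members, gene lists, tests and the 12 alternatives were chosen with earlier results of these data known. Named singly were Il2ra, Il21, Il6ra and Il21r, members past the test or the 1.5-fold rule, members with a level above the median of tested genes, and others where their family is described.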

Additional observations from a re-analysis of the deposited data

How the results depend on the processing

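The calls of Il6ra, Il21 and Il21r held under all 10 tested alternatives and that of Il6 under the 9 in which it passed the filter. Their log2 differences ran from 0.67 to 1.10 for Il6ra, 0.63 to 1.10 for Il6, -1.15 to -0.82 for Il21 and -0.76 to -0.63 for Il21r, arrays left out included. Among these alternatives, the fit of every probe set singly counts Il6ra by its brightest probe set, as the second was not called. Il16 lost its call in 5. Il10rb gained one in 2, as did Il13ra1 (median centring and the mean of probe sets, beside 1 of its probe sets fitted singly), and Il15ra (the mean of probe sets), Il27ra (adjusted p = 0.0402 with the dimmest 60% left out, against 0.0402 to 0.218 over its alternatives) and Il17ra in 1 each. Members called higher numbered 1 with the dimmest 60% left out and 4 with median centring. Members 1.5-fold higher in both arrays numbered 1 with a pseudocount of 64 and 1 with the dimmest 60% left out, and 4 were 1.5-fold lower with every probe set fitted singly. The mean of probe sets called 2 pathway genes lower. The median of the members turned to 0.030 without a filter, and was -0.15 with the dimmest 60% left out and -0.013 with median centring. With the dimmest 60% left out the median of all genes moved to -0.12, and it was 0.0023 without a filter, -0.0077 after quantile normalization and -0.0066 after median centring. With an Rptor-null array left out, where no test remains, the 1.5-fold counts were 2 to 3 higher and 2 lower and the median was -0.107 to -0.033. Array 1 left out added Il13ra1 to the first count. The sign turned for Il17ra with quantile normalization (0.027) and without Rptor-null array 1 (0.036, against -0.22 without array 2), for Il2rb with quantile normalization (0.026), and for Il4ra with quantile normalization (0.065), median centring (0.014), the mean of probe sets (0.034) and without Rptor-null array 1 (0.017, against -0.096 without array 2). The cause of these changes was not tested. Calls over all genes were 500 higher and 1411 lower, 301 and 769 without a variance trend, 525 and 700 after quantile normalization, and 877 and 1589 after median centring. No paired analysis was possible because the WT group has 1 array and no replicate number. With 1 WT array, its own spread is unknown, and levels near the filter limit what dim members can show.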
